A study of Homo sapiens with 12 samples.

Results

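The histone cluster genes are the rows whose older gene symbol begins with HIST1H, HIST2H, HIST3H or HIST4H, most of them replication-dependent histone genes that lie in clusters on chromosomes 6 and 1. Of 14866 rows in the expression tables, 46 carried such a symbol, and 44 of these held a normalised read count of at least 10 in at least 3 of the 12 libraries. The 44 genes comprise 4 linker histone H1 genes, 12 H2A, 13 H2B, 8 H3 and 7 H4 genes, of which 32 belong to the HIST1 cluster on chromosome 6 and 12 to the HIST2 and HIST3 clusters on chromosome 1. HIST1H4K and HIST1H2BF were left out, with a third-highest value of 6.18 and 7.85 normalised counts, and HIST1H2AJ lay just inside, at 10.7. HIST4H4 was not analysed here.

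The RNA came from SHI-1 cells, an established human acute myeloid leukaemia line that carries the MLL-AF6 fusion, after 16 h of exposure to one of 4 treatments. These were the DMSO vehicle, DSF (0.3 µM disulfiram with 1 µM copper), NSM (5 µM niclosamide) and DSF+NSM (all of these agents together), with 3 libraries in each group from independent experiments. Disulfiram is an aldehyde dehydrogenase inhibitor that binds copper, and niclosamide is an anthelmintic drug. The sources used here do not say whether the DMSO and NSM cells received copper. All values describe 1 cell line at 1 time point.

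In most vertebrate cells the histones that package newly copied DNA are made from many small genes without introns, which are switched on together in S phase. Their mRNAs are unusual in that they end in a conserved stem-loop, bound by the stem-loop binding protein SLBP, and not in a poly(A) tail. Some of the same genes also give longer, polyadenylated transcripts, a form known from differentiating or non-dividing cells. The libraries were made from RNA held on oligo(dT) beads, so the values report the polyadenylated histone transcripts together with whatever tail-less RNA was carried through.

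The 3′ end of these mRNAs shows the element that replaces the poly(A) signal. A search of GRCh38 for the 16-base stem-loop pattern within 150 bases after the stop codon found it in 43 of the 44 genes, against 73 of 19895 stop codons of all genes (0.367%), and the exception was HIST2H2BC, which is annotated as a transcribed pseudogene. Every annotated stop codon of a histone cluster gene was searched, but only the canonical stop codon of each protein-coding gene for the comparison. The latter set includes histone genes. The 6 distinct stem-loop sequences among the genes are shown because they separate H4 and a few H2B genes from the rest, with the base-pairing stem in capitals and the loop in lower case.
The form in 30 genes, among them HIST1H1C, HIST2H2AA3 and HIST2H2BE: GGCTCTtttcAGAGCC
The form in 4 genes, HIST1H2BC, HIST1H2BD, HIST1H2BJ and HIST1H2BK: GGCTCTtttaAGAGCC
The form in 5 genes, HIST1H4A, HIST1H4C, HIST1H4E, HIST1H4H and HIST1H4J: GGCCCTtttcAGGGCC
The form in 2 genes, HIST2H4A and HIST2H4B: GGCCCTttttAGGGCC
The form in 1 gene, HIST2H2AC: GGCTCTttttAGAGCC
The form in 1 gene, HIST1H2AG: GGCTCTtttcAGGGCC

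A few loci illustrate where this element sits. In HIST1H2BK, an H2B gene on the minus strand, it occupied chr6:27146366-27146381 of GRCh38, inside the exon, 37 bases past the stop codon. In the linker histone gene HIST1H1C it lay at chr6:26055744-26055759, and a second 3′ end signal, the hexamer AATAAA that precedes polyadenylation, followed 13 bases downstream. AATAAA occurred after the stem-loop, within 1000 bases of the stop codon, in 22 of the genes, where 62.0% of all stop codons are followed by it, so its presence does not set the histone genes apart. For 13 of the genes the GENCODE 44 or RefSeq annotation reaches more than 100 bases of genomic sequence past the stem-loop, and one of these is HIST1H2BK, with 8073 bases. This distance includes any introns. Whether the transcript that reaches so far also contains the stem-loop was not checked.

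The upstream sequence was examined because many of the genes changed together. Promoters of 38 of the 44 genes were found in the RefSeq table for GRCh38.p14, and both strands of 250 bases before and 50 after each start were searched for CCAAT, bound by NF-Y, for TATAAA, the TATA element, and for ATTTGCAT, the octamer bound by Oct-1. Each motif was scored as present or absent in a promoter. Where a gene had several promoters listed, only the first was counted. CCAAT was present in 33 promoters (86.8%, against 34.6% of 35116 promoters of all genes), TATAAA in 26 (68.4% against 11.5%) and ATTTGCAT in 17 (44.7% against 1.77%). CCAAT was found in all 4 H1, 11 H2A, 12 H2B and 6 H3 promoters and in none of 5 H4 promoters. ATTTGCAT was found in 9 of 12 H2B, 7 of 11 H2A and 1 of 6 H3 promoters and in no H1 or H4 promoter. The H3 match was at the upstream start of HIST1H3D and was absent from the 250 bases before its other listed start. Where an H2A and an H2B gene lie head to head, the same site can count for both. The 250 bases upstream of 6 genes that the results turn on are given with these motifs, on either strand, in capitals.
HIST1H1C, chr6:26056471-26056720, minus strand: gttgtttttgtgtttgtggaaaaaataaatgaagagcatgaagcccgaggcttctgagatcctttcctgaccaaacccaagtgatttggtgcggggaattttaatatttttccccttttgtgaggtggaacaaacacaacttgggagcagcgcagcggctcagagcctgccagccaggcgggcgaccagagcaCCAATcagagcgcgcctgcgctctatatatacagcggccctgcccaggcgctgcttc
HIST2H2AA3, chr1:149842751-149843000, minus strand: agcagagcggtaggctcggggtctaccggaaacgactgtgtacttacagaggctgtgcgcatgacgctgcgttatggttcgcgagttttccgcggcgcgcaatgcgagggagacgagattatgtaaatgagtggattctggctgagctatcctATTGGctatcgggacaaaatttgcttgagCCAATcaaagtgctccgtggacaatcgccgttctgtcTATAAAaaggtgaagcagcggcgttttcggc
HIST1H2BK, chr6:27146859-27147108, minus strand: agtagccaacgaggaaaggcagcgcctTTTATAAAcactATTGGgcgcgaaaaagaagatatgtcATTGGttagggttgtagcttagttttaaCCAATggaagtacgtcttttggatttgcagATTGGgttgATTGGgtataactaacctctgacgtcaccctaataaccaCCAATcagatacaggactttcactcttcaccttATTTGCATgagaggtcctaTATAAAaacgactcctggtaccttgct
HIST1H2BJ, chr6:27132796-27133045, minus strand: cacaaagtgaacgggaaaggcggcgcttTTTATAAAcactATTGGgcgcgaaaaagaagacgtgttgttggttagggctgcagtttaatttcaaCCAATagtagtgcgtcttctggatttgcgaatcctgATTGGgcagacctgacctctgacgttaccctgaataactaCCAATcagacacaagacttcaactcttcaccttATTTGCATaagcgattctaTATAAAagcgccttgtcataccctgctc
HIST2H2BE, chr1:149886683-149886932, minus strand: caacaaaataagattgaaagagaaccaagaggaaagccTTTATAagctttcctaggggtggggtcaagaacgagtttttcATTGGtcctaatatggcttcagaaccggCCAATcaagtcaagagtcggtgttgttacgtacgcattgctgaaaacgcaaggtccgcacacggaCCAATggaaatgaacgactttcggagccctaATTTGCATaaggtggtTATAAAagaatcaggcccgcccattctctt
HIST1H4H, chr6:26285535-26285784, minus strand: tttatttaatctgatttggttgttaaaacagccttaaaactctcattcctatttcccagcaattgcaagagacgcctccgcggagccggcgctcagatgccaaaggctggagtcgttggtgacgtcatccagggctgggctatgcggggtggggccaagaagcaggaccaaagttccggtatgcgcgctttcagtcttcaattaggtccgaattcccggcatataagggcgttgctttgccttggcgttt
The promoter of HIST1H4H held none of the motifs, whereas that of HIST1H2BK held all of them. A match to such letters is a description of the sequence and not evidence of binding.

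The libraries summed to between 13963864 and 25584448 normalised counts, and each library stood for an estimated 10.2 to 19.03 M reads. The histone cluster genes took a small part of this, an estimated 1009 to 1480 reads per library in DMSO, with a median of 10.0 to 15.5 reads per gene, and 9809 to 16179 reads in DSF+NSM. Fold changes of genes with few reads in DMSO are therefore imprecise, and 22 of the 44 genes averaged under 10 normalised counts there. Replicate 3 of NSM stood apart, with a Spearman correlation across all genes of 0.939 and 0.95 with the other NSM libraries, where replicates within the other groups reached 0.980 to 0.996. Marker genes covered a wide range. Of 12 myeloid markers 11 were listed, with MPO at 14453 to 62640 normalised counts but CSF1R at 11.9 to 142 and CD14 at 54.0 to 431. Of 16 markers of other cell types 8 were listed. The B cell marker MS4A1 was at 0 in every library, whereas CD3E was at 69.5 to 181 and PECAM1 at 448 to 1322.

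Summed over the 44 genes, histone cluster transcripts were more abundant after each drug and most abundant after the combination. The sum was 1019, 1118 and 989.5 normalised counts in the DMSO libraries, 2856, 3174 and 2772 with DSF, 3653, 3017 and 2000 with NSM and 24429, 24984 and 21775 with DSF+NSM. Every DSF, NSM and DSF+NSM library lay above every DMSO library, and the DSF+NSM libraries lay above all others, while the NSM range included the DSF values. Relative to the DMSO mean of 1042 ± 67.4 (SD, n = 3), the group means were 2.81-fold higher with DSF, 2.77-fold with NSM and 22.8-fold with DSF+NSM. The genes made up 0.00696 to 0.00778% of all normalised counts in DMSO and 0.0955 to 0.0993% in DSF+NSM. In bulk RNA a change in the share of cells that express a gene and a change in RNA per cell cannot be told apart.

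The 5 classes did not rise by the same factor. H2A summed to 211 ± 3.67 (SD, n = 3) in DMSO and 8566 ± 1288 in DSF+NSM, 40.7-fold. The corresponding ratios for the combination were 25.7 for H2B, 19.6 for H3, 12.3 for H1 and 3.20 for H4. With DSF alone H1, H2A, H2B and H3 stood 2.88, 3.23, 3.00 and 2.78 times above DMSO, and H4 1.28 times. NSM gave 2.42 for H1, 4.67 for H2A, 2.60 for H2B, 1.94 for H3 and 0.999 for H4, and in H4 the NSM libraries spread on both sides of the DMSO libraries. H4 thus had the smallest ratio in each treated group, and no test was run on these sums.

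**Figure D1:**
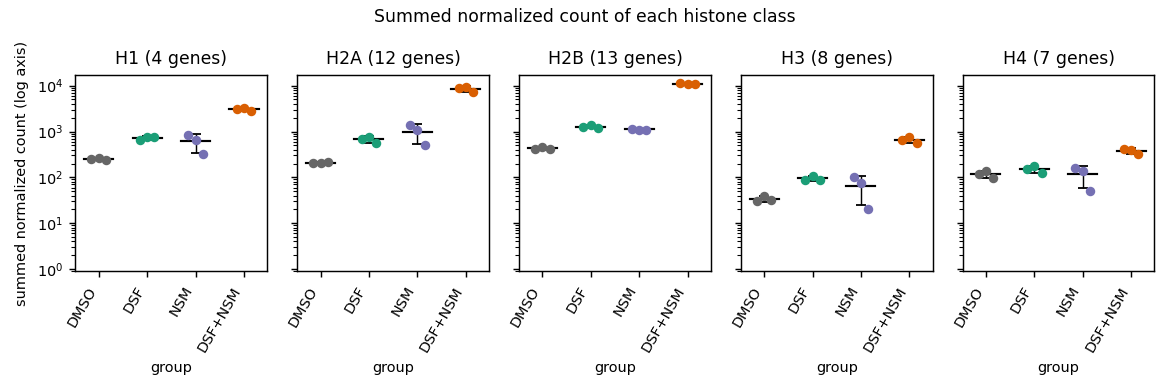
Summed normalised count of each histone class (vertical log axis) in the 12 libraries, by group, with points for single libraries, horizontal lines for group means and bars for SD (n = 3). The DSF+NSM points lie above all others in each of the 5 panels, and the step is smallest for H4.

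A few genes carried most of these sums. HIST1H1C accounted for 88.3% of the H1 sum in DMSO and 96.0% in DSF+NSM, HIST1H2BK for 55.7% and 78.4% of H2B, and the near-identical genes HIST2H2AA3 and HIST2H2AA4 for 38.4% and 84.6% of H2A. Without these 4 rows the remaining 40 genes still summed to 501 ± 54.7 (SD, n = 3) in DMSO and 4872 ± 319.9 in DSF+NSM, 9.72-fold, with ratios of 1.71 for DSF and 2.54 for NSM. The order of the classes by sum therefore leans on these rows and was not the order by gene. Taken gene by gene, the median log2 fold change for the combination was highest in H3, at 3.98. It was 3.46 for H2A, 3.45 for H2B, 1.93 for H1 and 1.47 for H4.

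Gene by gene, log2(normalised count + 1) was compared by limma over all 13502 genes that passed the filter, with Benjamini-Hochberg adjusted p under 0.05 as the threshold. On this scale the change of a low gene is understated. With DSF+NSM against DMSO, 36 of the 44 genes rose and none fell, also at an unadjusted p of 0.05 (39 and 0), where 28.3% of all genes rose and 24.5% fell (52.8% in all), and the median log2 fold change was 3.16 against 0.03 over all genes. By class, 2 of 4 H1, 11 of 12 H2A, 11 of 13 H2B, 7 of 8 H3 and 5 of 7 H4 genes rose. In 38 of the genes every DSF+NSM library was above every DMSO library, against 36.4% of all genes. Because a gene with few reads in DMSO could enter only through its treated libraries, these counts describe the genes that passed: 2 genes, HIST1H3I and HIST2H3D, reached 10 in DSF+NSM libraries alone, and 11 would not have passed on the 9 other libraries. Of the 33 that would, 28 rose.

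Each drug alone moved fewer of them. With DSF, 11 of 44 rose and none fell, with 17 and 1 at an unadjusted p of 0.05 (11.9% of all genes rose and 5.95% fell, 17.8% in all), with a median log2 fold change of 0.99 against 0.05 over all genes, and 24 genes had all DSF libraries above all DMSO libraries, against 33.4% of all genes. With NSM, 10 rose and 1, HIST1H4A, fell, where 25.4% of all genes rose and 23.7% fell (49.1% in all), or 13 and 3 at an unadjusted p of 0.05, and the median was 0.16 against 0.01. In 11 genes all NSM libraries were above and in 3 below all DMSO libraries, against 29.1% and 27.9% of all genes, so that neither the NSM calls nor this count exceeded the share over all genes. A total of 7 genes rose with both drugs: HIST1H1C, HIST1H2AC, HIST1H2BD, HIST1H2BJ, HIST1H2BK, HIST2H2AA3 and HIST2H2BE. HIST2H2AA3 shares its reads with the near-identical HIST2H2AA4, which passed with neither drug alone, and the sum of the pair passed with both. HIST1H2AM, HIST1H2BN, HIST1H2BO and HIST1H3H passed the test with DSF and not with NSM, and HIST1H2AE, HIST2H2AC and HIST3H2A passed it with NSM and not with DSF. Those comparisons share the DMSO libraries, and the difference between the drugs was not tested. Leaving out single libraries moved the DSF count to 18 (NSM replicate 3), to 6 (replicate 1 of DMSO or of DSF) or to 7 (replicate 2 of either group, or DSF replicate 3), and without NSM replicate 3 the NSM count was 16, of which 15 rose. When all libraries were instead scaled to equal sums, 9 rose and 4 fell with NSM. With library weights, 25 rose and 2 fell with DSF and 23 rose and 7 fell with NSM, and with only the compared groups fitted, 19 rose and 1 fell with DSF.

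**Figure D2:**
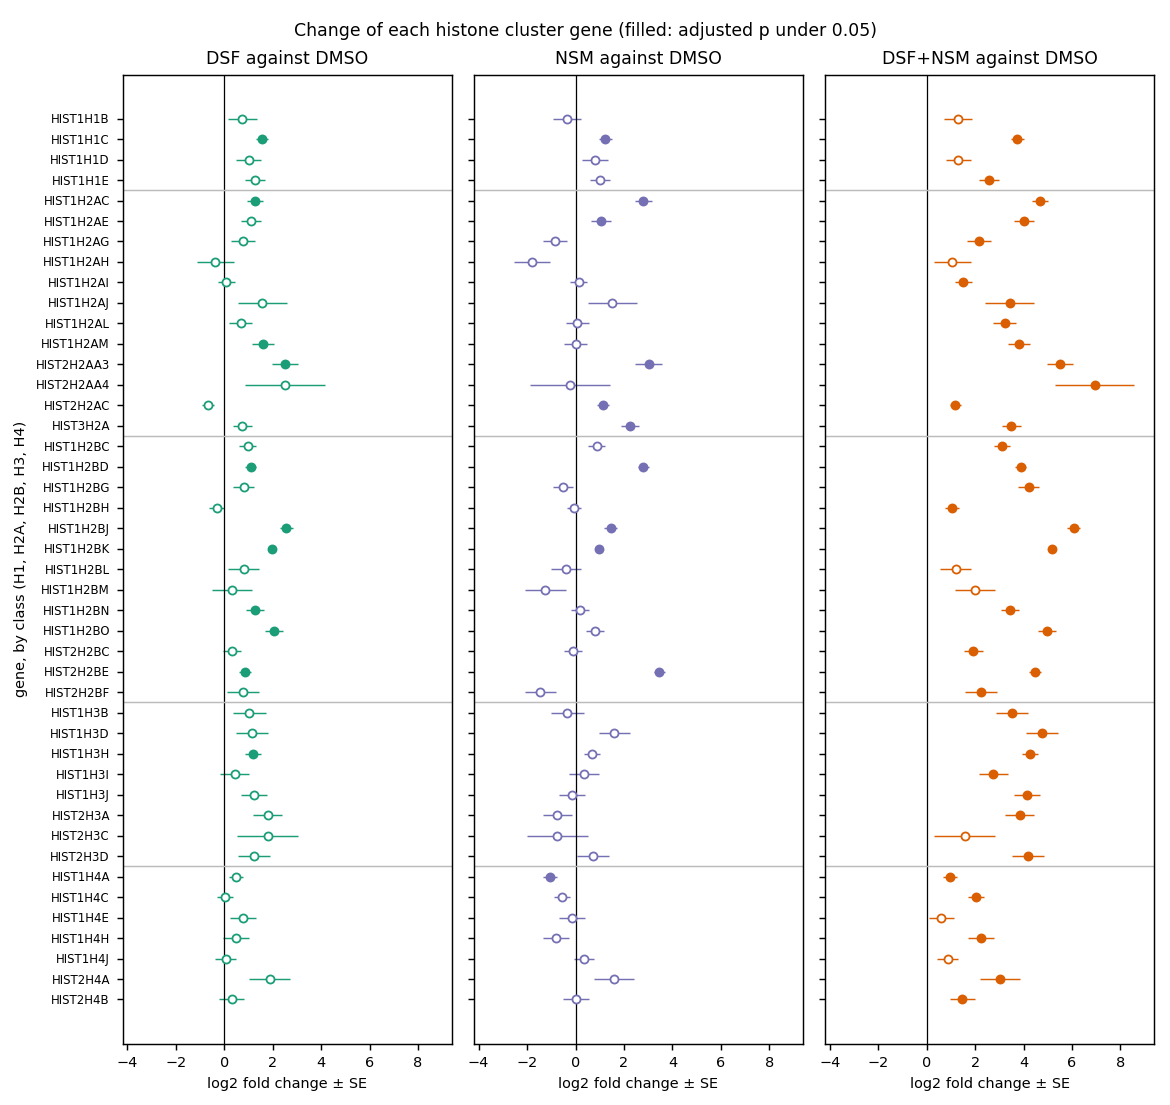
Log2 fold change against DMSO with its SE (horizontal axis) of each of the 44 genes, ordered by class, for DSF, NSM and DSF+NSM; filled circles passed adjusted p of 0.05. Most circles for DSF+NSM are filled and lie to the right of zero, with medians of 0.99, 0.16 and 3.16 for the 3 comparisons.

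H1 proteins bind the linker DNA between nucleosomes. HIST1H1C, which encodes the linker histone H1.2, held 229.8, 228 and 207 normalised counts in DMSO, 595, 696 and 686 with DSF, 785, 599 and 303 with NSM and 2993, 3127 and 2762 with DSF+NSM. None of the groups overlapped with DMSO, the widest spread was within NSM, and the combination libraries were above all libraries of either drug. Its log2 fold changes were 1.57 ± 0.26 (SE; adjusted p = 0.00182, limma), 1.24 ± 0.26 (0.00194) and 3.73 ± 0.26 (2.85e-07).

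The other linker genes rested on few reads. HIST1H1E, encoding H1.4, was at 7.95, 18.1 and 13.7 in DMSO and 82.3, 108 and 55.5 in DSF+NSM, and rose with the combination by 2.56 ± 0.41 (SE; adjusted p = 2.42e-04, limma). With DSF it was at 27.8, 22.9 and 49.1 and with NSM at 38.3, 30.04 and 16.6, which missed the threshold at adjusted p = 0.0535 and 0.0552. HIST1H1B, encoding H1.5, was at 4.42, 18.9 and 10.8 in DMSO and 38.5, 37.1 and 11.1 in DSF+NSM, and its groups overlapped. Similarly, HIST1H1D, encoding H1.3, was at 6.19, 3.78 and 3.92 and 14, 9.27 and 15.5, and its change of 1.30 ± 0.52 did not pass the test (adjusted p = 0.0521).

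Among the genes for the core histone H2A, HIST2H2AA3 and HIST2H2AA4 have near-identical sequences, and the quantification divided their reads unevenly between libraries. In NSM replicate 1, for example, HIST2H2AA3 held 840 normalised counts and HIST2H2AA4 was listed at 0, so only their sum is interpretable. The pair summed to 86.6, 83.1 and 72.5 in DMSO, 507, 555 and 366 with DSF, 840.3, 629.8 and 279 with NSM and 7722, 8186 and 5836 with DSF+NSM. These groups were separate from DMSO, and the combination libraries were far above those of either drug. Fitted as 1 feature, a choice made after the data were seen, the pair rose by 2.53 ± 0.32, 2.70 ± 0.32 and 6.46 ± 0.32 on the log2 scale (SE; adjusted p = 2.87e-04, 3.25e-05 and 2.03e-08, limma), the last an increase of 87.98-fold.

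HIST1H2AC is an H2A gene with an annotated long transcript, and its NSM libraries lay above its DSF libraries. It was at 12.4, 14.4 and 21.6 in DMSO, 39.3, 39.8 and 38.2 with DSF, 169.8, 148 and 60.1 with NSM and 439, 482 and 357 with DSF+NSM, with no overlap between DMSO and any treated group. The changes were 1.27 (adjusted p = 0.0242, limma), 2.80 (3.79e-05) and 4.67 (4.23e-07), and the DSF call was lost on leaving out DMSO replicate 1 or 2 or any one DSF library (adjusted p from 0.0569 to 0.0988).

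HIST3H2A, the 1 gene of the HIST3 cluster in the data, was at 24.7, 23.4 and 24.5 in DMSO, 192, 175 and 49.9 with NSM and 308, 266 and 279.7 with DSF+NSM. NSM replicate 3 was low here as well, although still above DMSO. It rose with NSM by 2.25 ± 0.39 (SE; adjusted p = 4.90e-04, limma) and with the combination by 3.50 ± 0.39 (1.26e-05), while DSF, at 38.2, 43.8 and 41.4, did not pass the test (adjusted p = 0.212).

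In HIST2H2AC the NSM and combination libraries overlapped. It held 33.6, 26.4 and 27.4 normalised counts in DMSO, 19.7, 15.9 and 18.5 with DSF, 85.4, 49.4 and 63.9 with NSM and 66.5, 66.4 and 68.8 with DSF+NSM. The DSF libraries were below all DMSO libraries without passing the test (-0.66, adjusted p = 0.0762, limma), and NSM and the combination gave 1.13 (adjusted p = 0.00203) and 1.19 (0.00127), with a difference between the last 2 groups of 0.06 ± 0.24 (SE; 0.874). The combination call of this gene was lost with libraries scaled to equal sums (adjusted p = 0.137).

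HIST1H2AE was at 6.19, 14.4 and 27.4 in DMSO and 215, 270.2 and 231 in DSF+NSM, a rise of 4.03 ± 0.41 (SE; adjusted p = 6.70e-06, limma). Its NSM libraries, at 45.2, 25.2 and 23.01, overlapped with DMSO. The NSM call (adjusted p = 0.0484, limma) was held under 8 of 24 settings, the main fit among them. It was lost on leaving out any one library other than DMSO replicate 3 or NSM replicate 3. Over the remaining H2A genes the combination changes ran from 1.06 for HIST1H2AH, the H2A gene that did not pass the test (adjusted p = 0.260), to 3.81 for HIST1H2AM, both named for being the extremes after their values were seen.

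Among the genes for H2B, the partner of H2A in the nucleosome, HIST1H2BK separated the groups most clearly. It held 248, 246 and 223 normalised counts in DMSO, 925, 1032 and 862 with DSF, 419, 437 and 555 with NSM and 8775, 8518 and 8653 with DSF+NSM. The groups were fully separated, in the order DMSO, NSM, DSF and DSF+NSM, and the replicates of the combination lay close together. Its log2 fold changes were 1.97 ± 0.13 with DSF (SE; adjusted p = 1.94e-06, limma), 0.97 ± 0.13 with NSM (9.10e-05) and 5.17 ± 0.13 with DSF+NSM (6.95e-11), the last a 36.1-fold increase.

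HIST1H2BJ followed the same order of groups. It was at 6.19, 7.56 and 11.8 in DMSO, 55.5, 53.7 and 51.2 with DSF, 30.4, 28.1 and 16.6 with NSM and 628, 642 and 582 with DSF+NSM, with no overlap between any groups. The changes of 2.56, 1.45 and 6.07 had adjusted p of 5.98e-05, 8.07e-04 and 7.04e-09 (limma).

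In HIST2H2BE and HIST1H2BD, both with annotated long transcripts, the NSM libraries lay above the DSF libraries. HIST2H2BE held 23.9, 30.98 and 28.4 in DMSO, 72.9, 33.8 and 53.4 with DSF, 357, 308 and 285 with NSM and 588, 625 and 701 with DSF+NSM. Every NSM library was above every DSF library, and the order was DMSO, DSF, NSM and DSF+NSM, without overlap. It rose with NSM by 3.47 ± 0.24 (SE; adjusted p = 7.11e-07, limma) and with the combination by 4.48 ± 0.24 (4.12e-08), whereas its DSF call (0.86, 0.0301) was lost on leaving out any one DMSO library, DSF replicate 1 or DSF replicate 3 (adjusted p from 0.0644 to 0.130).

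HIST1H2BD was at 19.8, 24.6 and 29.9 in DMSO, 50.7, 73.01 and 40.03 with DSF, 202, 165 and 166 with NSM and 367, 399.5 and 355 with DSF+NSM. The groups again did not overlap, and the changes were 1.09, 2.81 and 3.88 (adjusted p = 0.00808, 2.18e-06 and 8.70e-08, limma). HIST1H2BC, the neighbour of HIST1H2AC, was at 14.1, 19.6 and 6.86 in DMSO and 116, 114 and 115 in DSF+NSM, a rise of 3.10 ± 0.35 (SE; 1.38e-05), and passed the test with neither drug alone.

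HIST1H2BH had the smallest combination change among the H2B genes that passed. It held 53.9, 55.2 and 49.01 in DMSO, 35.9, 52.7 and 39.3 with DSF, 68.7, 64.9 and 28.1 with NSM and 105, 116 and 107 with DSF+NSM. The single-drug libraries overlapped with or surrounded the DMSO values, and the combination libraries were above all of them (1.04 ± 0.30, SE; adjusted p = 0.0120, limma), a call that was lost with libraries scaled to equal sums (adjusted p = 0.459). HIST1H2BL and HIST1H2BM did not pass for the combination (adjusted p = 0.131 and 0.0638), and their highest values in any library were 19.6 and 40.1 normalised counts.

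**Figure D3:**
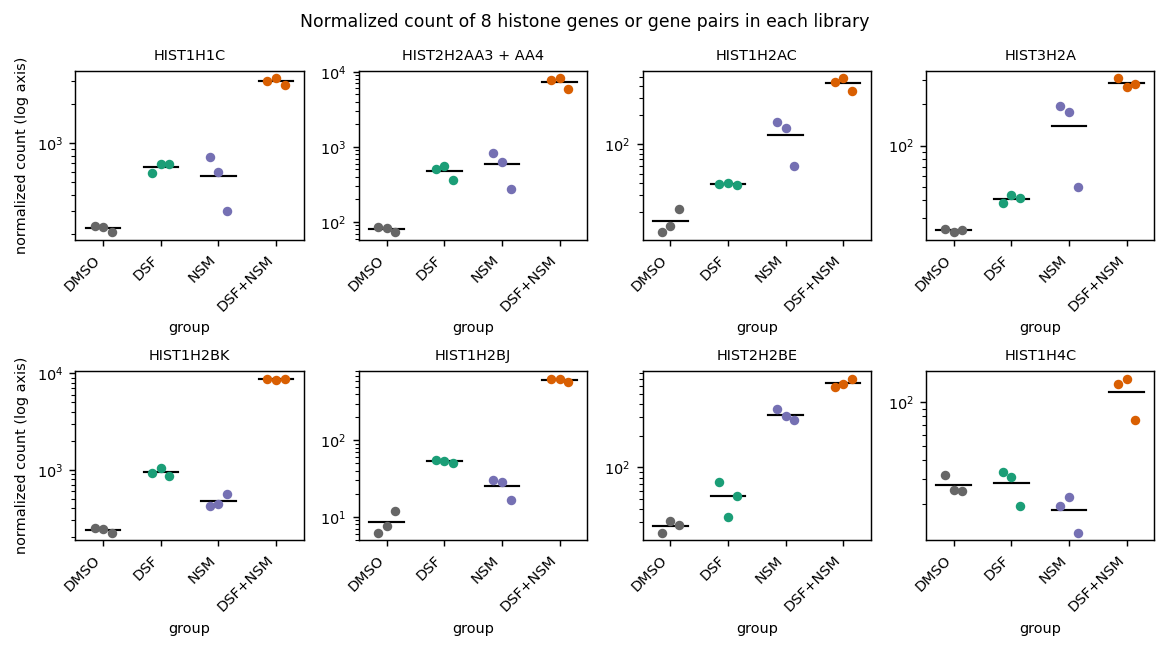
Normalised count (vertical log axis, scaled within each panel) of HIST1H1C, the HIST2H2AA3 and HIST2H2AA4 pair, HIST1H2AC, HIST3H2A, HIST1H2BK, HIST1H2BJ, HIST2H2BE and HIST1H4C in each library, by group, with lines at the means (n = 3). The combination libraries are highest in each panel, NSM lies above DSF for HIST2H2BE, and DSF lies above NSM for HIST1H2BK and HIST1H2BJ.

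The H3 genes, for the core histone whose tail carries many regulatory marks, rested on few reads in DMSO, at most 11.3 normalised counts in any library, and 7 of the 8 rose with the combination. HIST1H3D held 4.42, 10.6 and 7.84 in DMSO, 18.5, 18.9 and 14.2 with DSF, 58.9, 41.7 and 5.11 with NSM and 210.1, 279.5 and 191 with DSF+NSM. NSM replicate 3 fell within the DMSO range while the other NSM libraries were several times higher, and the NSM change of 1.61 ± 0.66 did not pass (SE; adjusted p = 0.0590, limma), in contrast to 4.77 ± 0.66 for the combination (6.82e-05).

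HIST1H3H was at 7.07, 11.3 and 5.88 in DMSO, 19.7, 22.9 and 15.3 with DSF, 14.7, 17.4 and 8.95 with NSM and 169.8, 199 and 138 with DSF+NSM. Only its DSF and combination libraries were all above DMSO, with changes of 1.18 (adjusted p = 0.0270, limma) and 4.25 (6.41e-07). The DSF call was lost on leaving out replicate 1 or 3 of DMSO, or replicate 1 or 2 of DSF (adjusted p from 0.0849 to 0.121).

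HIST2H3A and HIST2H3C are near-identical as well, and HIST2H3C was listed at 0 in DSF+NSM replicate 2 while HIST2H3A held 114. The pair summed to 10.6, 9.07 and 5.88 in DMSO, 30.1, 45.8 and 28.3 with DSF, 7.85, 9.69 and 0 with NSM and 123, 114 and 111 with DSF+NSM, and as 1 feature rose by 3.65 ± 0.69 with the combination (SE; adjusted p = 7.63e-04, limma). HIST2H3D was at 0.884, 0.756 and 0 in DMSO, an estimated 2 reads in the whole group, and 22.8, 30.9 and 24.4 in DSF+NSM.

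H4 was the class with the smallest ratios. HIST1H4C held 31.8, 24.9 and 24.5 in DMSO, 33.5, 30.8 and 19.6 with DSF, 19.6, 22.3 and 12.8 with NSM and 133, 145 and 75.5 with DSF+NSM. All NSM libraries were below all DMSO libraries without passing the test (-0.57 ± 0.32, SE; adjusted p = 0.162, limma), DSF overlapped with DMSO, and the combination rose by 2.04 ± 0.32 (2.09e-04).

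The annotation of HIST1H4H reaches 7522 bases of genomic sequence past its stem-loop. This gene was at 16.8, 26.4 and 10.8 in DMSO, 13.7, 19.4 and 2.56 with NSM and 85.8, 78.8 and 88.8 with DSF+NSM, a rise of 2.25 ± 0.53 (SE, adjusted p = 0.00345, limma). HIST1H4A, named because it was the gene that fell with NSM, went from 17.7, 15.1 and 15.7 to 7.85, 7.75 and 6.39 (-1.04 ± 0.29, 0.0101), and it rose with the combination, at 35.01, 27.8 and 35.5 (0.97 ± 0.29, 0.0136). HIST1H4J was at 28.3, 34 and 20.6 in DMSO and 61.3, 57.1 and 35.5 in DSF+NSM, with a change of 0.86 ± 0.43 that did not pass (0.113).

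The near-identical genes HIST2H4A and HIST2H4B summed to 22.98, 24.2 and 19.6 in DMSO and 94.5, 80.3 and 71.04 in DSF+NSM (1.83 ± 0.47, SE; adjusted p = 0.00579, limma). In DMSO replicate 2 HIST2H4A was listed at 0 and HIST2H4B at 24.2, so changes of either row alone are not interpretable. As 1 feature the pair changed by 0.65 ± 0.47 with DSF and 0.34 ± 0.47 with NSM. Neither passed the test (adjusted p = 0.366 and 0.579, limma). The annotated span of HIST2H4B contains HIST2H2AA4, HIST2H2BC and HIST2H3A, and since the library kit does not mark strand, reads from these genes cannot all be assigned to one of them. HIST2H2BC, the pseudogene in this span, was at 7.95, 17.4 and 10.8 in DMSO and 49.01, 50.96 and 39.96 in DSF+NSM.

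**Figure D4:**
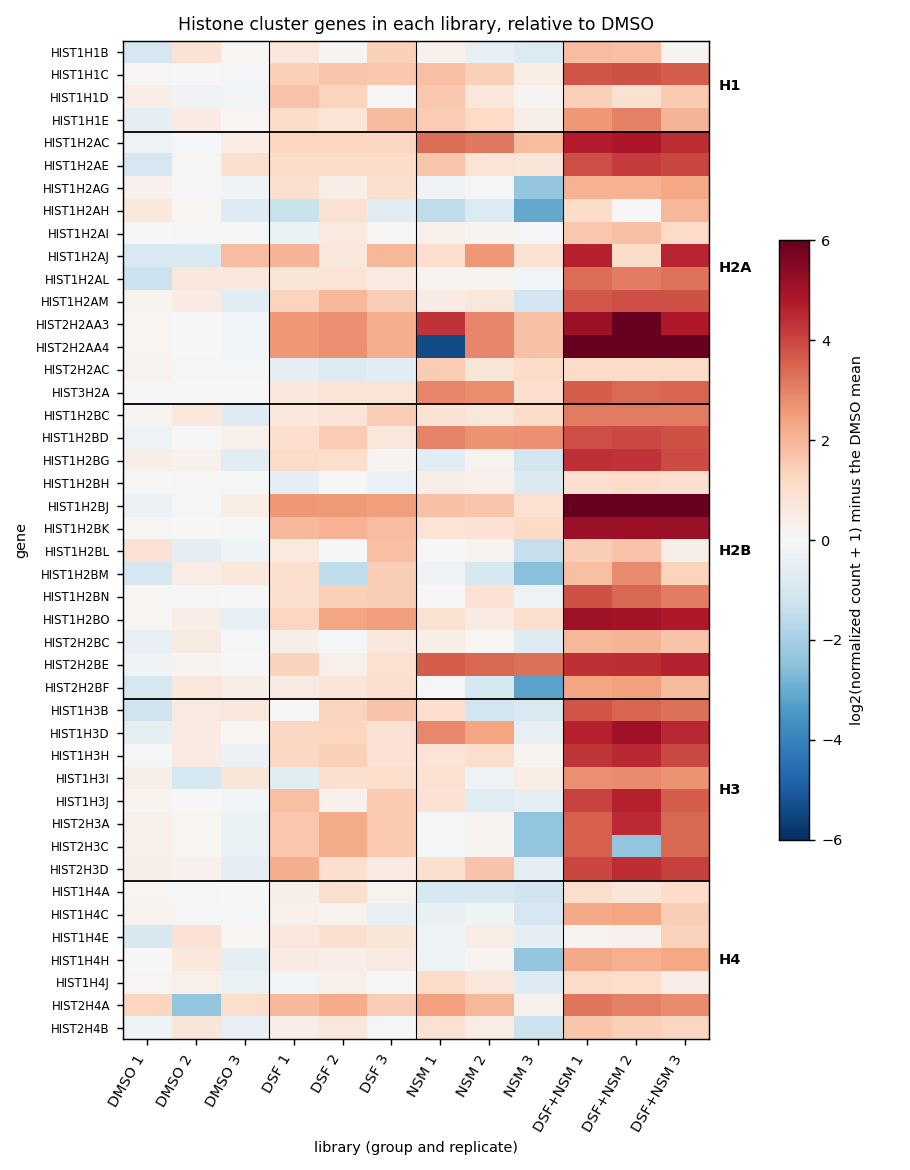
Log2(normalised count + 1) of the 44 genes (vertical axis, by class) in each of the 12 libraries (horizontal axis), each minus the gene's DMSO mean; red is higher and blue lower. The 3 DSF+NSM columns are red for nearly all genes, and the H4 block is the palest. Among the cells far from their group are near-identical genes listed at 0 (HIST2H2AA4 in NSM 1, HIST2H3C in DSF+NSM 2 and HIST2H4A in DMSO 2).

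The combination was also compared with each drug. Against DSF, 30 of the 44 genes were higher in DSF+NSM and none lower, or 33 and 0 at an unadjusted p of 0.05 (21.7% of all genes higher and 21.4% lower, 43.1% in all), with a median of 2.09 against 0.01 over all genes, and in 35 all combination libraries were above all DSF libraries, against 31.2% of all genes. Against NSM, 36 were higher and none lower, or 37 and 0 unadjusted (20.3% and 18.3%, 38.6% in all), with a median of 2.49 against 0.03, and 37 had no overlap in that direction, against 22.2% of all genes. Among the 33 genes that would pass without the DSF+NSM libraries, 23 were higher than with DSF and 27 higher than with NSM. A total of 29 genes were higher than in DMSO, DSF and NSM alike. HIST1H2BK exceeded its DSF level by 3.20 ± 0.13 (SE; adjusted p = 1.17e-07, limma) and its NSM level by 4.21 ± 0.13 (6.23e-10).

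Whether the joint change exceeded the sum of the changes with each drug was tested by the interaction term of the same fit, on the log2 scale. It was positive and passed the threshold in 20 of 44 genes, and negative in none, or in 27 and 0 at an unadjusted p of 0.05, where 12.1% of all genes passed with a positive and 14% with a negative term (26.1% in all). Of the 33 genes that would pass the filter on the 9 other libraries, 14 had a positive call, and the other 6 calls were in genes that entered with the help of the DSF+NSM libraries. The median over the histone cluster genes was 1.78, against 0.01 over all genes. The positive calls covered 5 H2A, 8 H2B, 4 H3 and 3 H4 genes and no H1 gene (1 unadjusted). HIST1H2BK had an interaction of 2.24 ± 0.19 (SE; adjusted p = 2.30e-05, limma), HIST1H2BJ of 2.05 ± 0.38 (0.00215), HIST1H3H of 2.38 ± 0.46 (0.00281) and HIST1H4C of 2.59 ± 0.46 (0.00158).

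In other genes the joint change was close to the sum of the single ones. HIST1H2BD had an interaction of -0.01 ± 0.33 (SE; adjusted p = 0.984, limma) and HIST2H2BE of 0.15 ± 0.35 (0.782), both of which are genes with a large NSM change. HIST1H1C, at 0.93 ± 0.37 (0.0817), and the HIST2H2AA3 and HIST2H2AA4 pair, at 1.23 ± 0.46 (0.0651), missed the threshold. The number of positive calls was 11 with libraries scaled to equal sums, and fell to 10 without DMSO replicate 2, 11 without DSF replicate 1 or DSF+NSM replicate 1, 12 without DSF+NSM replicate 2 and 13 without DSF replicate 3.

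Many H2A and H2B genes lie head to head and share the sequence between their start sites, and the members of such a pair did not have equal changes. HIST1H2BK and HIST1H2AH start 248 bases apart. HIST1H2BK averaged 239 normalised counts in DMSO and 8649 in DSF+NSM, whereas HIST1H2AH averaged 8.20 and 19.5. The next pair, HIST1H2BJ and HIST1H2AG, also 248 bases apart, gave combination changes of 6.07 and 2.17 on the log2 scale. In contrast, HIST1H2BG and HIST1H2AE, 233 bases apart, changed by 4.21 and 4.03.

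With NSM alone the pair of HIST2H2BE and HIST2H2AC, 236 bases apart, changed by 3.47 and 1.13, and HIST1H2AC and HIST1H2BC, 246 bases apart, by 2.80 and 0.88. Differences within these pairs were not tested, and the pairs outside the genes described above were chosen after their values were seen.

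The genes were then divided by what is known of their 3′ ends. Of the 9 genes listed as having known polyadenylated forms (HIST1H1C, HIST1H2AC, HIST1H2BC, HIST1H2BD, HIST1H2BK, HIST2H2BE, HIST1H4H, HIST2H2AA3 and HIST3H2A), 6 rose with DSF, 7 with NSM and all 9 with DSF+NSM, with medians of 1.09, 2.25 and 3.88. Of the other 35, 5 rose with DSF, 3 rose and 1 fell with NSM, and 27 rose with the combination, with medians of 0.80, 0.01 and 2.56. A division by annotation gave a like picture: of 13 genes annotated more than 100 bases past the stem-loop, 7, 6 and 13 rose, and of the other 30 with a stem-loop, 4, 4 and 22, with 1 falling with NSM. By the list, the order was the opposite for the interaction, which passed in 2 of the 9 listed genes (median 0.60) and in 18 of the other 35 (median 1.98). By annotation it passed in 6 of 13 and in 13 of 30, so the calls were not reversed, although the medians were 1.26 and 1.91. For the combination relative to NSM the medians by the list were 2.23 and 2.86. The calls did not follow that order, with 9 of 9 and 27 of 35 genes higher (20.3% of all genes). Over all genes 11.9% rose with DSF, 25.4% with NSM and 28.3% with DSF+NSM, and 12.1% had a positive interaction. HIST2H2AA3 counts among the 9 listed genes and its near-identical partner HIST2H2AA4 among the other 35, although they share reads. The division was not tested.

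Most RNAs on a list of those that carry no poly(A) tail were higher with DSF+NSM, and fewer with either drug. Of 27 such RNAs on the list, 17 were measured, and 5 rose with DSF, 6 rose and 1 fell with NSM and 14 rose and none fell with DSF+NSM (limma; 15 and 0 unadjusted), with a median combination change of 3.38. By comparison, 11.9% of all genes rose with DSF, 25.4% rose and 23.7% fell with NSM, and 28.3% rose and 24.5% fell with DSF+NSM. Relative to NSM all 17 were higher in DSF+NSM (median 2.55), and relative to DSF 13 were higher and none lower (median 2.61). The interaction was positive in 7 and negative in none (median 1.59), the same sign as in the histone cluster genes. Of all genes, 20.3% were higher relative to NSM, 21.7% relative to DSF, and 12.1% had a positive interaction. RN7SK, the 7SK small nuclear RNA, held 91.02, 148 and 112 in DMSO, 563, 679.7 and 456 with DSF, 498, 287 and 209.7 with NSM and 4073, 3799 and 3559 with DSF+NSM. As in the summed histone genes, DSF+NSM was highest and replicate 3 was the lowest NSM library, and its combination change was 5.04 ± 0.28 (SE; adjusted p = 4.60e-08, limma). SCARNA2, a small Cajal body RNA, changed by 4.71 ± 0.39 (1.20e-06).

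Ribosomal RNA took 1.11 to 2.84% of all normalised counts in DMSO, 3.71 to 4.98% in DSF, 0.643 to 3.69% in NSM, with replicate 3 the lowest, and 6.35 to 7.96% in DSF+NSM. The part of tail-less RNA in the histone values was not tested. Not every such RNA moved alike. SNORA73A, a small nucleolar RNA, was at 20.3, 15.1 and 12.7 in DMSO, 2.95, 4.84 and 0 with NSM and 28.01, 4.63 and 6.66 with DSF+NSM. The 13 measured RNAs other than rRNA summed to 1669, 637 and 489 in DMSO and 11107, 9477 and 8849 in DSF+NSM. DMSO replicate 1 was the highest of its group through the signal recognition particle RNAs RN7SL1, at 531, 137 and 89.2 in DMSO, and RN7SL2, at 794, 95.96 and 93.1, so no ratio is given for this sum.

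**Figure D5:**
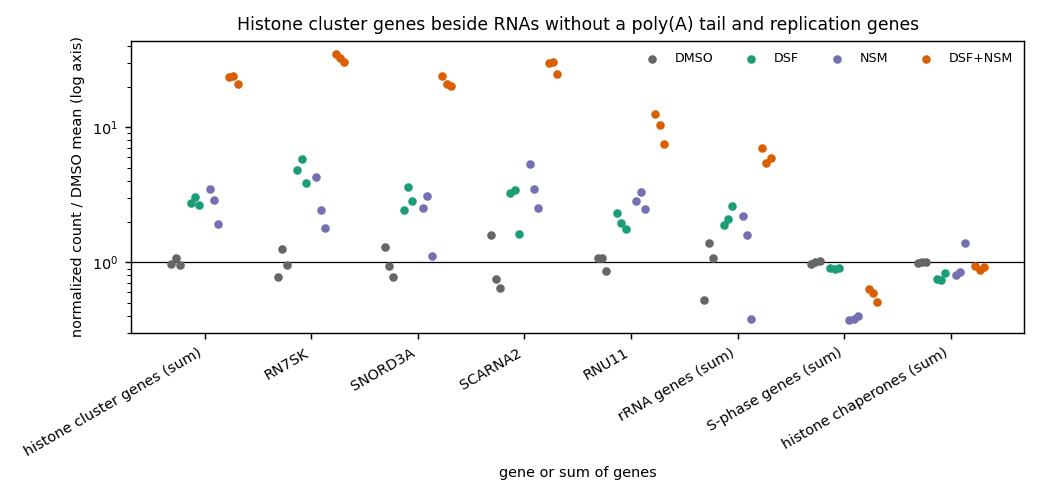
Normalised count divided by the DMSO mean (vertical log axis) in each library, coloured by group, for the sum of the 44 histone cluster genes, single RNAs without a poly(A) tail (RN7SK, SNORD3A, SCARNA2, RNU11), the sum of rRNA genes, and the sums of S-phase genes and histone chaperones. Histone cluster genes and RN7SK are both more than 20 times above DMSO with DSF+NSM, while the S-phase sum lies below 1 in every treated library.

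Histone synthesis is normally coupled to DNA replication, and most genes of replication fell with NSM and with DSF+NSM but not with DSF. Of 41 S-phase genes, 2 rose and 2 fell with DSF, none rose and 37 fell with NSM (limma; 1 and 37 unadjusted), and 1 rose and 27 fell with DSF+NSM, with medians of -0.20, -1.62 and -0.69. Relative to NSM alone, however, 28 were higher and 1 lower in DSF+NSM, with a median of 0.80, and the interaction was positive in 23 and negative in none, the same sign as in the histone cluster genes. Relative to DSF, none were higher and 28 lower. The shares of all genes that rose and fell were 11.9% and 5.95% with DSF and 25.4% and 23.7% with NSM. They were 28.3% and 24.5% with DSF+NSM, 20.3% and 18.3% relative to NSM, and 21.7% and 21.4% relative to DSF. A positive interaction was called in 12.1% of all genes and a negative one in 14%. PCNA, the sliding clamp of the replication fork, was at 5104, 5195 and 5025 in DMSO, 663, 846 and 794 with NSM and 1231, 883 and 888 with DSF+NSM, and fell by 2.37 on the log2 scale with the combination (adjusted p = 1.44e-07, limma). GINS1, a subunit of the replicative helicase complex, changed by -2.16 (2.32e-06), and CDT1, a licensing factor, was the 1 gene of the list that rose, by 0.84 (0.0165).

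Among 20 genes of histone mRNA 3′ end processing, none rose and 3 fell with DSF (limma; 3 and 7 unadjusted), 3 rose and 8 fell with NSM, and 2 rose and 7 fell with the combination. Of all genes, 11.9% rose and 5.95% fell with DSF, 25.4% and 23.7% with NSM, and 28.3% and 24.5% with the combination. SLBP, which binds the stem-loop, was at 1414, 1519 and 1545 in DMSO, 1242, 1190 and 1097 with DSF, 546, 636 and 1015 with NSM and 781, 675 and 555 with DSF+NSM. It was lower in every NSM and DSF+NSM library than in any DMSO library, with changes of -1.08 ± 0.20 (SE; adjusted p = 9.05e-04, limma) and -1.17 ± 0.20 (4.22e-04). NPAT, the activator of histone gene transcription in S phase, fell by 1.07 with the combination (0.00205), and CASP8AP2, a component of the histone locus body, by 1.63 (3.23e-04).

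The processing genes that rose with the combination were ZNF473, a zinc finger protein of the U7 snRNP machinery, by 1.38 (adjusted p = 1.05e-05, limma), and GON4L by 1.01 (1.04e-05). Of 19 general cleavage and polyadenylation factors, 3 rose and 3 fell, where 28.3% of all genes rose and 24.5% fell. Neither count exceeded the share over all genes. The largest changes among those called were FIP1L1 at 0.82 (0.0144), WDR33 at 0.49 (0.00302), CPSF6 at -1.38 (7.87e-04) and CPSF4 at -0.85 (0.0299).

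Histone genes outside the clusters, most of which are polyadenylated and largely independent of replication, had no common direction. Of 11 measured, 3 rose and 4 fell with the combination, near the shares of all genes (28.3% and 24.5%). H3F3B, a gene for the replacement histone H3.3, was at 6551, 6690 and 6486 in DMSO, 8218, 8762 and 6964 with DSF, 8785, 9256 and 8831 with NSM and 23156, 24491 and 20929 with DSF+NSM, and rose by 1.79 ± 0.11 (SE; adjusted p = 1.00e-07, limma). H3F3A, which encodes the same protein, fell by 0.51 (0.00245).

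CENPA, the centromeric H3 variant, fell by 2.29 (adjusted p = 2.00e-07, limma) and H2AFX, the variant phosphorylated at DNA breaks, by 1.08 (0.00924), while H2AFZ, at -0.41, did not pass (0.139). H2AFJ rose by 0.95 (0.0166). The linker variant H1F0 was at 306, 297 and 308 in DMSO, 1861, 2050 and 1787 with NSM and 455, 494 and 806 with DSF+NSM, higher with NSM alone (2.64, 7.26e-07) than with the combination (0.90, 0.00150), the reverse of the order in HIST1H1C. H1FX, a further linker variant, gave 1.53 with NSM (0.00495) and 0.66 with the combination (0.155).

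Histone chaperones, which carry histones to and from DNA, mostly fell: 2 of 24 rose and 13 fell with NSM, and 1 rose and 15 fell with the combination. The shares over all genes were 25.4% rising and 23.7% falling with NSM, and 28.3% and 24.5% with the combination. CHAF1B, a subunit of the assembly factor CAF-1, changed by -1.5 with the combination (adjusted p = 1.20e-05, limma), MCM2 by -1.18 (5.90e-04) and SPTY2D1 by 1.40 (1.60e-04).

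All of these values rest on the deposited normalisation. The DSF+NSM libraries sum to more normalised counts than the DMSO libraries, so scaling all libraries to equal sums lowers the median change of all genes for the combination to -0.75 and for NSM to -0.25. On that scale 30 of the 44 genes still rose with DSF+NSM and none fell, and the combination ratio of the summed genes was 13.2.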

How the data were processed

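The authors deposited normalised counts per gene, 1 table per library (unit signal: read counts divided by a size factor, per the file headers and labels, so they are not raw counts). The 12 libraries were made from poly(A)-selected RNA with the TruSeq RNA v2 kit, which does not mark strand. The submitters' processing notes name bcl2fastq 2.19, Trimmomatic, Bowtie2, Picard, featureCounts, DESeq2 and hg38, and the study's methods name STAR and Salmon. The table headers give 24 columns for the whole normalisation. The step between low values gave an estimated depth, and 95.0 to 97.8% of histone values were whole multiples of it (tolerance 0.01 steps); the reads were not recovered for all genes, so no count model was used.

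From these values log2(normalised count + 1) was computed for the 13502 genes that reached 10 in 3 or more libraries. limma 3.58.1 in R 4.3.3 fitted all 4 groups together (trend, robust), with Benjamini-Hochberg adjustment over all genes, and was tested on simulated data. That the 3 libraries of each group came from independent experiments is stated in the study's methods and not in the labels. Replicate numbers are not stated to mark a shared experiment and were not used as a block. The histone genes and the gene lists were chosen with earlier results of these data known. Genes were named by rule: the 3 highest per class in DMSO, the 5 largest changes in each direction with a mean of at least 50, all H1 genes, genes with known polyadenylated forms, and the 2 largest changes in each direction of each list. Loci and sequences came from GRCh38 with GENCODE 44 and RefSeq. Alternatives covered scaling, pseudocount, filter, libraries fitted, library weights, the replicate block, leaving out each library, and summing near-identical genes, the last chosen after seeing the data.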

Additional observations from a re-analysis of the deposited data

Results flagged for a closer look

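The results listed here are interactions, in which the change with DSF+NSM differed from the sum of the changes with DSF and with NSM on the log2 scale (limma, adjusted p under 0.05). This was so for 20 of the 44 histone cluster genes, all with a positive difference. Of all genes, 12.1% passed with a positive and 14% with a negative difference. Among the genes named, the interaction was 1.85 for HIST1H2AE, 1.42 for HIST1H2BH, 2.05 for HIST1H2BJ, 2.24 for HIST1H2BK, 2.38 for HIST1H3H, 2.59 for HIST1H4C, 2.58 for HIST1H4H and 2.79 for HIST2H3A. HIST1H2BK, HIST1H2BJ, HIST1H3H and HIST1H4C passed the threshold under every setting in which they were tested, 23 or 24 each, whereas HIST1H2AE passed in 12 of 23, HIST1H2BH in 16 of 24, HIST2H3A in 16 of 22 and HIST1H4H in 19 of 23. These numbers of settings include the main fit, in which all of them passed. HIST2H3A shares its reads with HIST2H3C, and their sum had an interaction of 2.77 with an adjusted p of 0.0538.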

How the results depend on the processing

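The 45 results of named genes that passed the threshold in the main fit were recomputed 1048 times under the alternatives. Of these runs 984 kept direction and still passed, 64 kept direction and no longer passed, and none reversed. Results of named genes that missed the threshold were not part of this count, so it cannot show calls gained. Requiring at least 10 in all 12 libraries left 11 genes to test, of which 6 were called for DSF, 10 for DSF+NSM, 10 for DSF+NSM against DSF, 9 against NSM and 3 for the interaction. Scaling to equal sums, with or without rRNA genes, gave 11 interaction calls. Library weights gave 27 calls for DSF and 30 for NSM, and fitting only the groups compared gave 20 for DSF; the cause was not tested. Leaving out 1 library at a time gave 6 to 18 calls for DSF, 10 to 16 for NSM, 32 to 39 for DSF+NSM and 10 to 22 for the interaction. With the replicate number as a block the calls were 12, 12, 37, 31, 35 and 19 for the 6 comparisons; deviations of same-numbered libraries correlated between -0.06 and 0.28 (15 of 18 above 0, 2 over 0.1) and those of other libraries between -0.23 and 0.24 (12 of 36 above 0), which hints at a weak link by number but not every pair exceeded 0.1, so the libraries were not treated as paired. Equal sums gave class ratios for DSF+NSM of 7.13 (H1), 23.5 (H2A), 15 (H2B), 11.3 (H3), 1.85 (H4) and 13.2 (all), and for H2B 2.81 with DSF and 2.16 with NSM. On leaving out 1 library, the H2B ratio ranged from 2.54 to 2.71 (NSM) and from 25.2 to 26.8 (DSF+NSM). Depth limits genes with under 10 normalised counts in DMSO, 22 of the 44.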
